A study of Mus musculus with 2 samples.

Results

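The caveolae and fenestral diaphragm genes described here are Cav1, Cav2, Cavin1, Cavin2, Cavin3, Ehd2, Pacsin2 and Plvap, 8 of the 31053 genes in the deposited matrices, and all 8 were found by symbol in both libraries. Caveolae are flask-shaped pits of the plasma membrane. Caveolins sit in the pit's membrane, cavins form an outer coat around it, and the membrane-bending proteins EHD2 and PACSIN2 act at the neck. PLVAP builds the thin diaphragms that close caveolae and the fenestrae of many capillaries. Liver sinusoidal endothelial cells (LSECs) are known instead for open fenestrae that mostly lack diaphragms, grouped in sieve plates, and for heavy uptake through clathrin-coated pits.

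Transcripts of individual cells were counted in endothelium sorted from the liver of 1 adult Gimap5sph/sph mouse and 1 adult Gimap5sph/+ mouse, written sph/sph and sph/+ below, both on a C57BL/6 background. The sort took cells without the dead-cell dye DAPI and without CD45, the leukocyte antigen, but with CD31, the endothelial antigen. Gimap5 encodes a GTPase found in lymphocytes and endothelium, and both mice carried the sph allele, so no wild-type animal is in the comparison. A droplet library was made from each mouse with 10x Genomics 3' chemistry, which counts unique molecular identifiers (UMIs) near the 3' end of transcripts. The comparison asks how these genes differ between the libraries and among endothelial subtypes. With 1 mouse on each side, library and genotype cannot be told apart, no test was possible and every difference describes these libraries. The intervals in brackets are exact and cover counting error only.

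Sequencing gave 68983780 UMIs in 16386 barcodes of sph/sph and 64460283 UMIs in 13136 barcodes of sph/+. After filtering and doublet removal 11316 sph/sph and 10982 sph/+ cells were kept, of which 19 barcodes occurred in both, and 10705 and 10257 were endothelial-like. The endothelial marker Cdh5 was at 1221 CPM in sph/sph and 868 CPM in sph/+ over these cells, where CPM are UMIs scaled to a common library total. Pecam1, which encodes CD31, was at 1045 CPM in sph/sph and 723 CPM in sph/+, and Ptprc, which encodes CD45, at 0.058 CPM in sph/sph and 0.063 CPM in sph/+. Gimap5 was at 103.95 CPM in sph/sph and 104.84 CPM in sph/+, and such counts do not show which allele a mouse carries. The subtypes were found without using the caveolar genes themselves. Continuous vascular-like cells numbered 7548 in sph/sph and 6 in sph/+, LSEC-like cells 879 in sph/sph and 9644 in sph/+, and lymphatic-like cells 1164 in sph/sph and 8 in sph/+. The continuous vascular-like and lymphatic-like names are therefore nearly confined to sph/sph, and cycling and unnamed endothelial-like cells made up the rest.

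The promoters of 6 members were found in the RefSeq table for GRCm38.p6, the build of the positions below. Cav1 and Cav2 are neighbours on mouse chromosome 6 on the plus strand. Cav2 lies from 17281185 to 17289115 and Cav1 from 17306335 to 17341452, with 17219 bases between them. Ehd2 lies on chromosome 7 from 15946958 to 15967567 on the minus strand, and Cavin2 on chromosome 1 from 51289126 to 51302960 on the plus strand. The 250 bases before the annotated start of these 4 genes follow, 5′ to 3′, because Cav1 and Ehd2 differed most between libraries among them, while the neighbour Cav2 and the coat gene Cavin2 stayed within 2-fold. The windows are chr6:17306085-17306334 for Cav1 (the upstream one of 2 annotated starts), chr6:17280935-17281184 for Cav2, chr7:15967536-15967785 for Ehd2 and chr1:51288876-51289125 for Cavin2. The starts are those of RefSeq. The RefSeq start of Ehd2 lies inside the Ehd2 span given above, so its window runs into that span. Capitals mark the GC box GGGCGG, searched on both strands.
Cav1: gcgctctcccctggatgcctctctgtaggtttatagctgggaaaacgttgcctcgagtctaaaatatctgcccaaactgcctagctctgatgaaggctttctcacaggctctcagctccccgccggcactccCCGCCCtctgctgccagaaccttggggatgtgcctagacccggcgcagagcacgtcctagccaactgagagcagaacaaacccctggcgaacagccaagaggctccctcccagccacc
Cav2: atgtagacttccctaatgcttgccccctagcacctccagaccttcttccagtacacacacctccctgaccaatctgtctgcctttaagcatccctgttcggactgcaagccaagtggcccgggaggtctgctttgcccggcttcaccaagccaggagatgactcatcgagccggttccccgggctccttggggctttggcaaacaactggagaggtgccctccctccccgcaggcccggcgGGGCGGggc
Ehd2: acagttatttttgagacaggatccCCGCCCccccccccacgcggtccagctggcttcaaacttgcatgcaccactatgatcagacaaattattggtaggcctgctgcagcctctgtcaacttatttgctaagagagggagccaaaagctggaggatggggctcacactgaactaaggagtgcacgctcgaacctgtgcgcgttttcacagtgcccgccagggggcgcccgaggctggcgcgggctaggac
Cavin2: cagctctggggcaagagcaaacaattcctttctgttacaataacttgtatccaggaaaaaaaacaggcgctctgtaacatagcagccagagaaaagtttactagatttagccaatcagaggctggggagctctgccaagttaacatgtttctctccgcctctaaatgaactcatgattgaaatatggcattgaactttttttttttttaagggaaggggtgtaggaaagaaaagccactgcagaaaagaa
The Cav1, Cav2 and Ehd2 windows each held 1 GC box and the Cavin2 window 0, against 32.7% of all 32851 RefSeq promoters of this length. The Cav1 window had 59.6% G and C with 10 CpG sites, the Cav2 window 62.0% with 10 sites, and the Ehd2 window 58.0% with 12 sites. The Cavin2 window had 40.4% G and C with 2 sites, while the median promoter had 52.4% and 6 sites. The letters TATAAA and CCGGAA were also searched on both strands. Of these 4 windows, that of Cav1 alone held TATAAA, against 12.4% of all promoters. It lay near the 5′ end of the window and on the strand opposite to the printed one, so it is not called a TATA box here. CCGGAA, the core of ETS sites, was in 0 of the 4 windows, against 12% of all. The window before the other Cav1 start, which is not printed, held 0 GC boxes and 0 copies of TATAAA on either strand. These counts say only which letters the windows hold.

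Cav1, the main structural protein of caveolae in endothelium, stood far higher in the sph/sph library. It had 42939 UMIs or 834 CPM (826 to 841) over endothelial-like cells in sph/sph, against 1884 UMIs or 39.8 CPM (38.0 to 41.7) in sph/+. The ratio was 20.9 (19.99 to 21.9). Its partner Cav2, which depends on caveolin-1 to reach the cell surface, was at 179 CPM in sph/sph and 116 CPM in sph/+, a ratio of 1.55 (1.5 to 1.60). The neighbouring caveolin genes therefore differed between the libraries by very unequal amounts.

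Among the cavins, which coat the membrane pit, the 3 members differed between the libraries by unequal amounts. Cavin1 (chromosome 11 from 100956733 to 100970887), needed for caveolae to form, was at 295 CPM in sph/sph and 95.8 CPM in sph/+, a ratio of 3.08 (2.98 to 3.18). Cavin3 (chromosome 7 from 105480083 to 105482300) was at 336 CPM (331 to 341) in sph/sph against 8.71 CPM (7.89 to 9.59) in sph/+, a ratio of 38.6 (35.0 to 42.6). Cavin2, known in endothelium as a cavin that shapes the caveolar membrane, was at 1025 CPM in sph/sph and 1282 CPM in sph/+, a ratio of 0.80 (0.79 to 0.81). Cavin3 thus had the widest gap between the libraries among the cavins and Cavin2 the narrowest.

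The neck genes also parted. Ehd2, an ATPase that stabilises caveolae at the surface, had 19329 UMIs or 375 CPM (370 to 381) in sph/sph and 282 UMIs or 5.96 CPM (5.28 to 6.70) in sph/+. Its ratio of 63.0 (56.0 to 71.1) was the highest of the 8 members. Pacsin2 (chromosome 15 from 83375607 to 83464606), a membrane-curving F-BAR protein, was at 54.3 CPM in sph/sph and 36.9 CPM in sph/+, a ratio of 1.47 (1.39 to 1.56). Plvap (chromosome 8 from 71497765 to 71511752), the diaphragm gene, was at 255 CPM (251 to 259) in sph/sph and 211 CPM (207 to 215) in sph/+, a ratio of 1.21 (1.18 to 1.24).

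**Figure D1:**
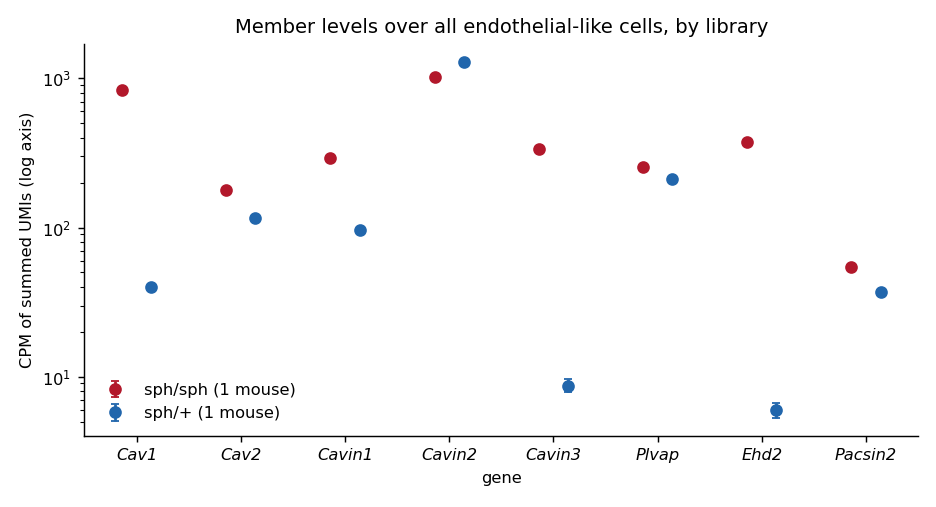
Level of each member over all endothelial-like cells, in CPM of summed UMIs on a log axis, with sph/sph in red at the left of each pair and sph/+ in blue at the right; bars are 95% exact Poisson intervals, often smaller than the point. Cav1, Cavin3 and Ehd2 lie far apart (834, 336 and 375 CPM in sph/sph, against 39.8, 8.71 and 5.96 CPM in sph/+), while Plvap, Cav2, Cavin2 and Pacsin2 lie close together.

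All 8 members reached 20 CPM in at least 1 library, the level at which a gene was counted as measured. Differences were expressed as the log2 ratio of sph/sph over sph/+ after 1 CPM had been added to both. Of the 8, 4 were higher in sph/sph by 2-fold or more (Cav1, Cavin1, Cavin3 and Ehd2), and 0 were lower by that much. The median log2 ratio of the members was 1.12. Over all 7463 measured genes, 11.0% were higher by 2-fold or more and 10.6% lower by 2-fold or more, with a median log2 ratio of -0.07. In sums such as these, fewer cells of a type and less RNA per cell cannot be told apart, so the subtypes are given next.

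In the sph/sph library Cav1 and Ehd2 were highest in continuous vascular-like cells, which made up 70.5% of its endothelial-like cells. There Cav1 was at 1083 CPM, Ehd2 at 504 CPM, Cavin3 at 314 CPM and Cavin1 at 361 CPM, the last within counting error of the 357 CPM of cycling sph/sph cells. These cells held 74.9% of the library's endothelial Cav1 UMIs and 77.4% of its Ehd2 UMIs. Lymphatic-like cells of sph/sph had Cav1 at 481 CPM, Ehd2 at 180 CPM and Cavin3 at 435 CPM, so Cavin3 stood higher there while Cav1 and Ehd2 stood lower.

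Plvap took a different course. Lymphatic-like cells of sph/sph had it at 693 CPM (678 to 708) and held 61.6% of the library's endothelial Plvap UMIs, although they were 10.9% of the endothelial-like cells. Continuous vascular-like cells had Plvap at 111 CPM and held 25.1% of those UMIs, but 2437 of their 3302 Plvap UMIs came from the 261 cells of cluster 16, described below. Without the lymphatic-like cells the Plvap log2 ratio between the libraries was -0.73, against 0.27 with them. The direction of the Plvap ratio in the summed counts thus changed without this 1 cluster, and both values were within 2-fold. That cluster was also the deepest of the endothelial clusters, with a median of 9779 UMIs per cell, and its leading genes Mmrn1 and Ccl21a, markers of lymphatic endothelium, stood beside Dcn and Hamp, genes of stromal cells and of hepatocytes. Dcn was at 1379 CPM and Hamp at 388 CPM, while Prox1, a transcription factor of lymphatic endothelium, was at 480 CPM. Of the 9 stellate or fibroblast markers 2 were at 0 there, among them Col1a1, and Pdgfrb was at 0.17 CPM. The summed hepatocyte markers, a list without Hamp, were at 51.4 CPM there and 148 CPM in continuous vascular-like cells. Alb, one of that list, was at 11.3 CPM in lymphatic-like and 74.8 CPM in continuous vascular-like cells. The summed erythroid markers were at 449 CPM in these cells and 35.0 CPM in continuous vascular-like cells. Their part in the Plvap level was not tested.

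Among LSEC-like cells of sph/+, Cavin2 was at 1224 CPM, Plvap at 180 CPM (176 to 184), Cav2 at 117 CPM and Cavin1 at 89.0 CPM. Cav1 was at 38.9 CPM (37.1 to 40.8), from 1705 UMIs in 9644 cells. Cavin3 had 22 UMIs or 0.50 CPM, and Ehd2 13 UMIs or 0.30 CPM. The LSEC-like transcriptome of this library therefore held caveolin, Cavin1, Cavin2 and diaphragm transcripts, with Cavin3 and Ehd2 near 0. Unnamed endothelial cells, which were 4.64% of the sph/+ endothelial-like cells, held 81.6% of that library's Cavin3 UMIs and 89.4% of its Ehd2 UMIs.

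The 10 sph/sph clusters with at least 50 cells ran in largely opposite orders for Cav1 and Plvap. Cav1 was highest in cluster 1, the Rgcc and Lpl capillary cells, at 1375 CPM (1351 to 1399). The arterial Hey1 and Igfbp3 cells of cluster 8 had 1085 CPM, the Apln and Angptl4 cells of cluster 6 had 1062 CPM, cycling cluster 10 had 1031 CPM and the Aplnr cells of cluster 2 had 950 CPM. Next came cluster 12, led by S-phase genes such as Pclaf, at 781 CPM, lymphatic-like cluster 7 at 481 CPM, cluster 17 at 141 CPM, cluster 16 at 126 CPM and LSEC-like cluster 9 at 68.5 CPM. Intervals of neighbours in this order overlapped between clusters 8 and 6, 6 and 10, and 17 and 16. Cluster 1 stood 20.1-fold above cluster 9 (17.8 to 22.7).

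Plvap was highest in cluster 16, led by Vwf and the elastic-fibre gene Fbln5, at 1594 CPM (1531 to 1658). Cluster 17, led by Rspo3 and Wnt9b, genes of central-vein endothelium, followed with 965 CPM, then lymphatic-like cluster 7 with 693 CPM. LSEC-like cluster 9 had 116 CPM, arterial cluster 8 had 104 CPM, cycling cluster 10 had 52.5 CPM, cluster 6 had 39.0 CPM and cluster 12 had 36.6 CPM. The Aplnr cells of cluster 2 had 13.1 CPM and the Rgcc capillary cells of cluster 1 had 5.45 CPM (4.03 to 7.2). Cluster 16 stood 293-fold above cluster 1 (221 to 397), so the lowest Plvap and the highest Cav1 fell in the same cells. The continuous vascular-like name covers both extremes, and cluster 16 also had 7 of 12 LSEC markers detected.

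**Figure D2:**
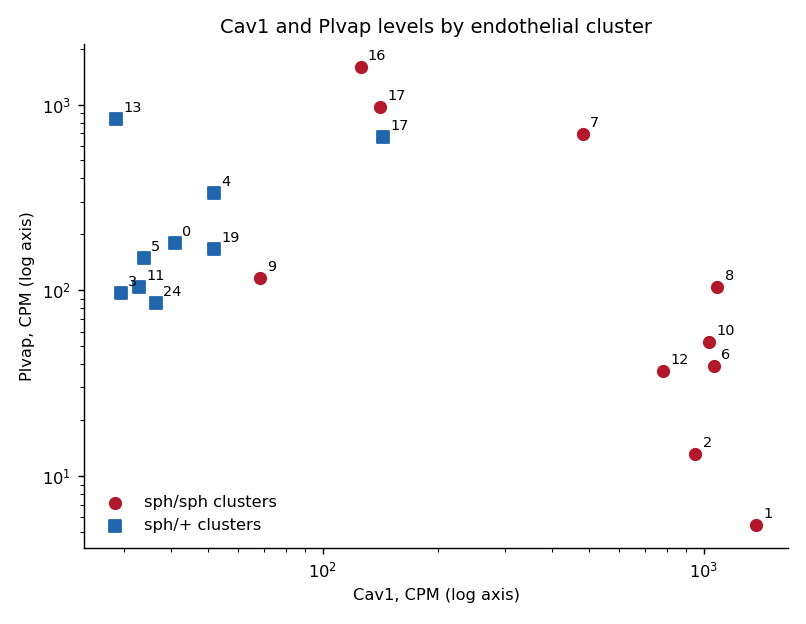
Cav1 level (x axis) against Plvap level (y axis) in CPM, both on log axes, for each endothelial cluster with at least 50 cells, with sph/sph clusters as red circles, sph/+ clusters as blue squares and cluster numbers beside them. The sph/sph clusters run from cluster 16 (126 CPM Cav1, 1594 CPM Plvap) to cluster 1 (1375 CPM Cav1, 5.45 CPM Plvap), while all sph/+ clusters lie at or below 144 CPM Cav1.

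In sph/+ the highest Cav1 level was in cluster 17, the Rspo3 and Wnt9b cells, at 144 CPM (108 to 188), and cluster 4, the LSEC-like cells led by Wnt2, Rspo3 and Kit, followed with 51.9 CPM. The other 7 clusters lay between 28.6 and 51.8 CPM, and 7 of the 8 pairs of neighbours in the Cav1 order had overlapping intervals. Plvap was highest in cluster 13, led by Nrg1 and the portal-side gene Adgrg6, at 833 CPM (795 to 873), then in cluster 17 at 671 CPM. Within the LSEC-like clusters Plvap was at 333 CPM (320 to 345) in central-side cluster 4, 180 CPM in cluster 0, 149 CPM (141 to 157) in cluster 5, led by the portal-side genes Msr1 and Ntn4, 104 CPM in the interferon-gene cluster 11 and 96.4 CPM in cluster 3. The LSEC-like range was thus narrow for Cav1 and wider for Plvap, and clusters 13 and 17 stood above all of them in Plvap.

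The remaining members followed other orders. In sph/sph, Cavin2 was highest in cluster 1 (1629 CPM) and lowest in cluster 9 (441 CPM), and in sph/+ highest in cluster 13 (2515 CPM) and lowest in cycling cluster 24 (912 CPM). Cavin3 was highest in cycling cluster 10 of sph/sph (585 CPM) and, in sph/+, in cluster 13 (148 CPM) and cluster 17 (67.9 CPM). Ehd2 reached 622 CPM in cluster 1 of sph/sph, and 103 and 102 CPM in clusters 17 and 13 of sph/+. Cav2 spanned 3.34-fold over the sph/sph clusters (2.92 to 3.83) and 1.47-fold over the sph/+ clusters (1.02 to 2.17). Pacsin2 spanned 1.62-fold in sph/sph (1.30 to 2.01) and 1.89-fold in sph/+ (1.18 to 2.88), and all pairs of neighbours in its order had overlapping intervals in both libraries.

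**Figure D3:**
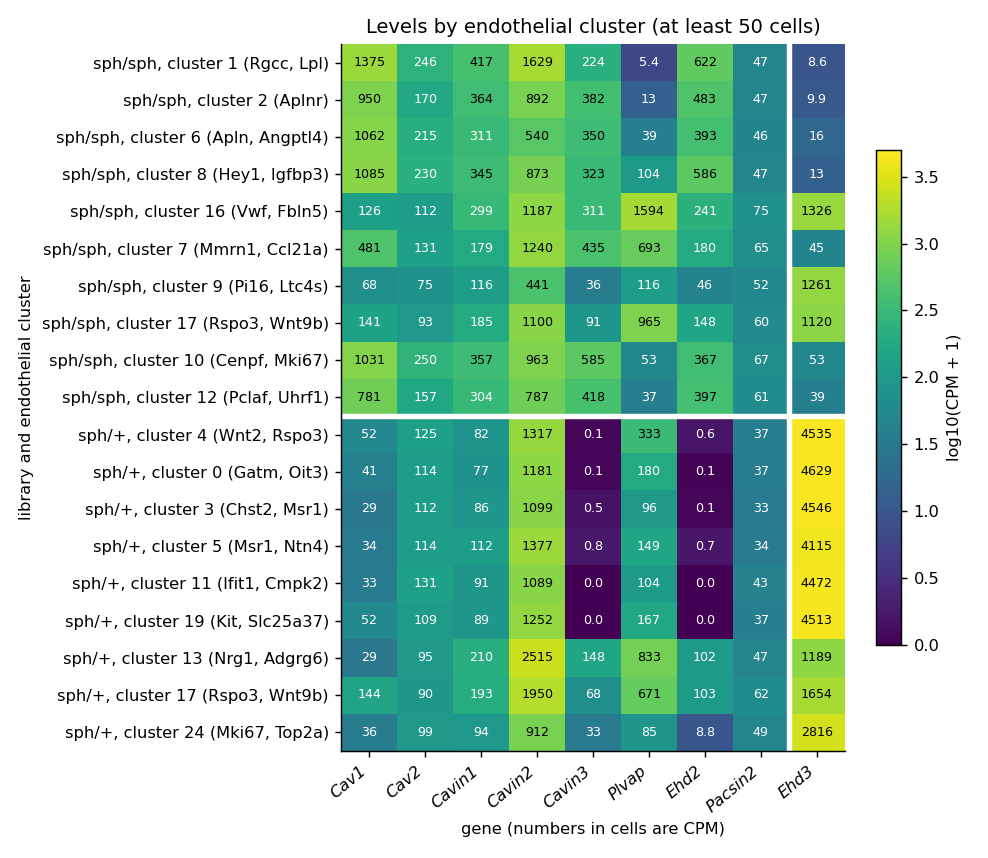
Levels of the 8 members and of the paralog Ehd3 in each endothelial cluster with at least 50 cells, as numbers in CPM and as colour on a log10(CPM + 1) scale, with sph/sph clusters above the white line and sph/+ clusters below it and 2 leading genes of each cluster in brackets. Cav1 and Ehd2 are bright in the sph/sph capillary rows, Cavin3 and Ehd2 are at or under 0.76 CPM in the sph/+ LSEC-like rows, and Plvap is bright in clusters 16, 17, 7 and 13.

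Over clusters, the Pearson correlation of log2(CPM + 1) between Cav1 and Plvap was -0.70 over the 10 sph/sph clusters and 0.48 over the 9 sph/+ clusters. Cav1 and Cav2 had 0.95 in sph/sph and -0.44 in sph/+, and Cav1 and Ehd2 had 0.89 in sph/sph and 0.41 in sph/+. Clusters of a library share its reads and depth, so these are descriptions only. Genes whose pattern was among the most like that of Cav1 were Gnai2 (0.99), Atoh8 (0.98) and Cxxc5 (0.98) among 6695 genes in sph/sph, and Pex2 (0.98) and Gpd2 (0.97) among 6668 genes in sph/+. For Plvap they were Tcaf1 (0.97), Synpo (0.95) and Tnfaip2 (0.95) in sph/sph, and AU021092 (0.97), Txndc15 (0.96) and Lims2 (0.96) in sph/+.

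To compare cells at equal depth, each endothelial-like cell was thinned to 2000 UMIs, which left out 899 sph/sph and 417 sph/+ cells. A Cav1 UMI was then found in 71.6% of 9806 sph/sph cells (70.7 to 72.5) and 7.25% of 9840 sph/+ cells (6.74 to 7.78). Plvap had the opposite order, with 13.95% of sph/sph cells (13.3 to 14.7) and 30.3% of sph/+ cells (29.4 to 31.2). Unthinned, the Cav1 shares were 83.8% in sph/sph and 15.7% in sph/+, and the Plvap shares 17.9% in sph/sph and 48.4% in sph/+. The Plvap level in CPM was also lower in sph/sph in these thinned cells (log2 ratio -0.33) and with all cells weighted equally (-0.44), against 0.27 in the summed counts, where deep cells weigh more.

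Cavin3 had a UMI in 41.6% of sph/sph cells and 1.06% of sph/+ cells, Ehd2 in 51.8% of sph/sph cells and 0.80% of sph/+ cells, and Cavin1 in 43.6% of sph/sph cells and 17.2% of sph/+ cells. Cavin2 was found in 74.4% of sph/sph cells and 87.7% of sph/+ cells, Cav2 in 29.8% of sph/sph cells and 20.9% of sph/+ cells, and Pacsin2 in 9.89% of sph/sph cells and 6.83% of sph/+ cells. At least 4 of the 8 members were found in 48.7% of sph/sph cells and 3.56% of sph/+ cells. The mean number of members per cell was 3.37 in sph/sph and 1.72 in sph/+.

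Free RNA in droplets can give UMIs in cells that do not express a gene, and no class in either library lacked endothelial transcripts. Myeloid-marked cells of sph/+ (median 4761 UMIs, against 4306 in LSEC-like cells) carried the LSEC genes Stab2 at 1363 CPM and Clec4g at 3841 CPM, levels within the range of the LSEC-like clusters. A Cav1 UMI was found in 3 of 123 such cells, or 2.44% (0.51 to 6.96), and in 7.21% of 9251 LSEC-like cells (6.69 to 7.76). A Plvap UMI was found in 25.2% of such myeloid-marked cells (17.8 to 33.8) and 28.4% of LSEC-like cells (27.5 to 29.3). In sph/sph, hepatocyte-marked cluster 21 (133 cells, median 1812 UMIs) carried Cav1 at 328 CPM, Cavin3 at 122 CPM, Ehd2 at 119 CPM and Plvap at 6.43 CPM from 2 UMIs. Cluster 21 also carried the capillary marker Rgcc at 109 CPM. All 478 hepatocyte-marked sph/sph cells together had Cav1 at 1065, Cavin3 at 238, Ehd2 at 446 and Plvap at 41.2 CPM. Neither class is therefore a blank for free RNA, and how much free RNA adds to the shares was not tested.

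In the same cells, Cav1 and Plvap were found apart in continuous vascular-like endothelium. Of these sph/sph cells, 79.4% had a Cav1 UMI only, 3.24% Plvap only and 2.03% both. Plvap was found in 2.5% of the cells with Cav1 (2.10 to 2.94) and 17.4% of those without it (15.4 to 19.6), as the cluster levels above imply. Lymphatic-like sph/sph cells had both genes in 35.9% of cells, and Plvap was found in 62.3% of those with Cav1 (58.4 to 66.0) and 68.1% of those without it (63.8 to 72.2). LSEC-like sph/+ cells had Plvap in 28.6% of cells with Cav1 and 28.4% of cells without it.

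**Figure D4:**
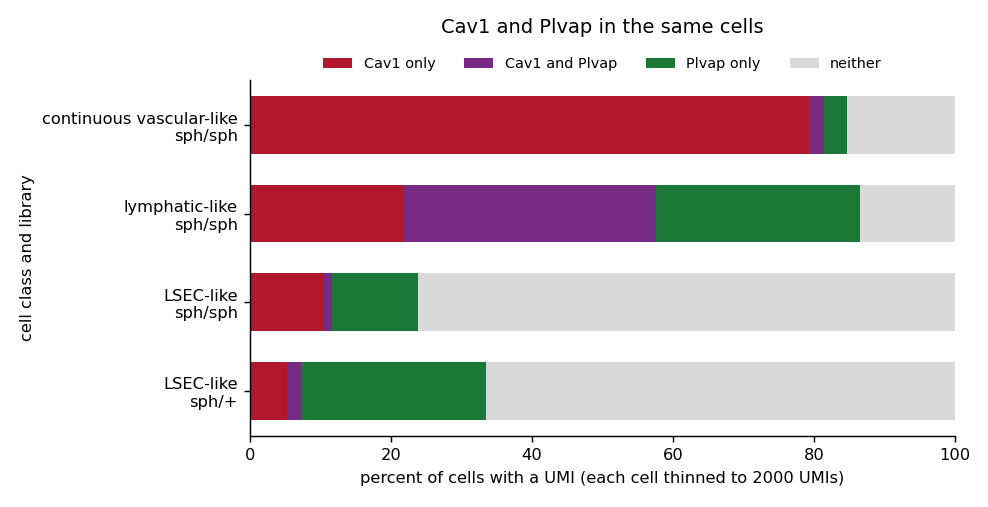
Percent of cells with a UMI of Cav1 only, of both genes, of Plvap only or of neither, after thinning each cell to 2000 UMIs, for 3 classes of sph/sph and, at the bottom, LSEC-like cells of sph/+. Cells with both genes make up 2.03% of continuous vascular-like cells, 35.9% of lymphatic-like cells and 1.39% of LSEC-like cells in sph/sph, and 2.06% of LSEC-like cells in sph/+.

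The LSEC-like name was held by 879 sph/sph and 9644 sph/+ cells, and members were also compared inside it. The sph/sph cells were nearly all cluster 9, which had 10 of 12 LSEC and 7 of 15 continuous markers detected, with Stab2 at 269 CPM and the lectin gene Clec4g at 534 CPM, and with Ch25h, Rgs2 and other genes of neither list leading it. The sph/+ cells were clusters 0, 3, 4, 5, 11 and 19, with Clec4g between 2708 and 4261 CPM. Cav1 was at 68.4 CPM (60.5 to 77.0) in these sph/sph cells and 38.9 CPM in the sph/+ cells, a ratio of 1.76 (1.54 to 1.997), far under the 20.9 over all endothelial-like cells. Cavin2 was at 441 CPM in sph/sph and 1224 CPM in sph/+, 2.78-fold lower in sph/sph (2.65 to 2.91). Plvap was at 116 CPM in sph/sph and 180 CPM in sph/+, a ratio of 0.64 (0.59 to 0.71). Over 5 alternatives the sph/sph level ran from 43.5 to 292.6 CPM and the sph/+ level from 178.5 to 185.1 CPM. The direction of the Plvap ratio in LSEC-like cells therefore depended on the clustering, which its interval does not cover.

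Cavin3 was at 36.1 CPM in LSEC-like sph/sph cells and 0.50 CPM in LSEC-like sph/+ cells, a ratio of 71.8 (45.7 to 118), and Ehd2 at 45.8 CPM in sph/sph and 0.30 CPM in sph/+, a ratio of 154 (88.1 to 296). Of the 8 members, 2 were thus higher and 1 lower by 2-fold or more, against 10.9% and 10.7% of the 7392 genes measured in these cells. As a share of the level in continuous vascular-like cells of the same library, the sph/sph LSEC-like levels were 6.31% for Cav1, 9.09% for Ehd2 and 11.5% for Cavin3. The other members lay between 32.1% (Cavin1) and 107% (Pacsin2). Among 14 of the 15 continuous markers, the share ran from 1.26% (Sparcl1) and 1.68% (Rgcc) to 219% (Gja4). Their median was 33.1%, and 3 lay below 10%. Selp, the marker left out, was at 9.27 CPM in the continuous vascular-like cells and 40.6 CPM in the LSEC-like sph/sph cells, a share of 438%.

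Both libraries contributed 50 or more cells to 1 endothelial cluster, number 17, with 149 in sph/sph and 70 in sph/+. Here Cav1 was at 141 CPM (119 to 166) in sph/sph and 144 CPM (108 to 188) in sph/+, a ratio of 0.98 (0.71 to 1.37). Cavin3 was at 90.6 CPM in sph/sph and 67.9 CPM in sph/+, a ratio of 1.33 (0.85 to 2.16), and Ehd2 at 148 CPM in sph/sph and 103 CPM in sph/+, a ratio of 1.43 (0.999 to 2.10). The levels of these 3 genes were thus within counting error between the libraries in these Rspo3 and Wnt9b cells. Their intervals allow up to 1.37-fold higher or 1.41-fold lower in sph/sph for Cav1, and up to 2.16-fold higher for Cavin3 and 2.10-fold for Ehd2. The cells of this cluster were not alike in all markers. Stab2 was at 2.86 CPM in sph/sph and 86.9 CPM in sph/+, Clec4g at 444 and 817 CPM and Aplnr at 122 and 0 CPM, while Wnt9b was at 665 and 644 CPM. Of the 7485 genes measured here, 12.2% were higher and 12.1% lower in sph/sph by 2-fold or more. Plvap was at 965 CPM in sph/sph and 671 CPM in sph/+, a ratio of 1.44 (1.25 to 1.66), and Cavin2 at 1100 CPM in sph/sph and 1950 CPM in sph/+, a ratio of 0.56 (0.51 to 0.62).

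Cycling endothelial-like cells kept the gap. The 539 sph/sph cells (mostly cluster 10, with 9 of 15 continuous and 1 of 12 LSEC markers detected) had Cav1 at 1027 CPM, and the 123 sph/+ cells (mostly cluster 24, with 12 LSEC and 2 continuous markers detected) had 41.0 CPM, a ratio of 25 (18.4 to 34.9). Ehd2 was at 365 CPM in these sph/sph cells and 7.0 CPM, from 7 UMIs, in the sph/+ cells. The Cav1 levels lay near those of the largest class of each library, 1083 CPM in continuous vascular-like sph/sph cells and 38.9 CPM in LSEC-like sph/+ cells.

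The paralogs of the neck gene Ehd2 showed the opposite order in 1 case. Ehd3, an EHD ATPase of endosomal recycling, was at 181 CPM (177 to 185) over endothelial-like cells in sph/sph and 4259 CPM (4240 to 4277) in sph/+, 23.5-fold lower in sph/sph. Its level was between 4115 and 4629 CPM in every sph/+ LSEC-like cluster with at least 50 cells and between 8.56 and 15.6 CPM in sph/sph clusters 1, 2, 6 and 8, where Ehd2 was between 393 and 622 CPM. Clusters 16, 17 and 9 of sph/sph had Ehd3 at 1326, 1120 and 1261 CPM, and clusters 13 and 17 of sph/+ at 1189 and 1654 CPM. Ehd4 was at 222 CPM in sph/sph and 90.1 CPM in sph/+ and peaked at 2007 CPM in cluster 16, where it was among the leading genes, and Ehd1 was at 150 CPM in sph/sph and 80.6 CPM in sph/+.

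Cav3, the muscle caveolin, and Cavin4, the muscle cavin, had 0 UMIs in both libraries. Pacsin1, of neurons, had 12 UMIs in sph/sph and 0 in sph/+, and Pacsin3 had 106 UMIs in sph/sph and 11 in sph/+, and neither was measured. Of the 7 paralogs, Ehd1, Ehd3 and Ehd4 were measured.

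As a list, the measured partners and residents of caveolae did not follow Cav1. Of 19 such genes 14 were measured, with 2 higher and 3 lower in sph/sph by 2-fold or more and a median log2 ratio of -0.41, against 11.0% higher, 10.6% lower and -0.07 over all measured genes. Emp2, a tetraspan membrane protein, was at 34.9 CPM in sph/sph and 0.40 CPM in sph/+, and Flna, an actin crosslinker that binds caveolin-1, at 133 CPM in sph/sph and 36.0 CPM in sph/+. The insulin receptor gene Insr was at 41.7 CPM in sph/sph and 133 CPM in sph/+, and the Src-family kinase gene Fyn at 196 CPM in sph/sph and 535 CPM in sph/+. Nos3, the endothelial nitric oxide synthase held by caveolin-1, was at 123 CPM in sph/sph and 108 CPM in sph/+. The listed genes under the measured level leaned upward. Src was at 8.04 CPM in sph/sph and 0.38 CPM in sph/+, Trpv4 at 8.23 and 0.34 CPM, and Prkcd at 7.12 and 1.86 CPM. Prkca was at 5.55 CPM in sph/sph and 6.83 CPM in sph/+, and Trpc1 at 0.39 and 0.21 CPM.

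Genes of the fenestra and sieve-plate cytoskeleton lay on both sides. Of 18 genes 17 were measured, with 3 higher and 2 lower in sph/sph by 2-fold or more and a median log2 ratio of 0.35. The values over all measured genes were 11.0% higher, 10.6% lower and -0.07. Anxa2, a membrane-binding annexin, was at 872 CPM in sph/sph and 198 CPM in sph/+, and the actin crosslinker gene Actn1 at 99.8 CPM in sph/sph and 31.3 CPM in sph/+. Limk1, a kinase of the actin regulator cofilin, was at 8.72 CPM in sph/sph and 32.6 CPM in sph/+, and Nrp1, a VEGF co-receptor, at 653 CPM in sph/sph and 1660 CPM in sph/+. The remaining gene past 2-fold was Rdx, with a log2 ratio of 1.06.

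Clathrin coat and adaptor genes, of another route of endocytosis, leaned the other way. All 15 were measured, with 2 higher and 7 lower in sph/sph by 2-fold or more and a median log2 ratio of -0.93. Among all measured genes 11.0% were higher and 10.6% lower by that much, with a median of -0.07. Itsn1, an endocytic scaffold, was at 19.4 CPM in sph/sph and 151 CPM in sph/+, Ap2a2, a subunit of the AP-2 adaptor, at 73.4 CPM in sph/sph and 297 CPM in sph/+, and Dab2, a cargo adaptor, at 222 CPM in sph/sph and 812 CPM in sph/+. The clathrin heavy chain gene Cltc was at 210 CPM in sph/sph and 521 CPM in sph/+. The light chain genes differed in direction, with Clta at 354 CPM in sph/sph and 858 CPM in sph/+, and Cltb at 179 CPM in sph/sph and 55.0 CPM in sph/+. The lists were chosen with earlier results of these data known, so their counts are descriptions.

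**Figure D5:**
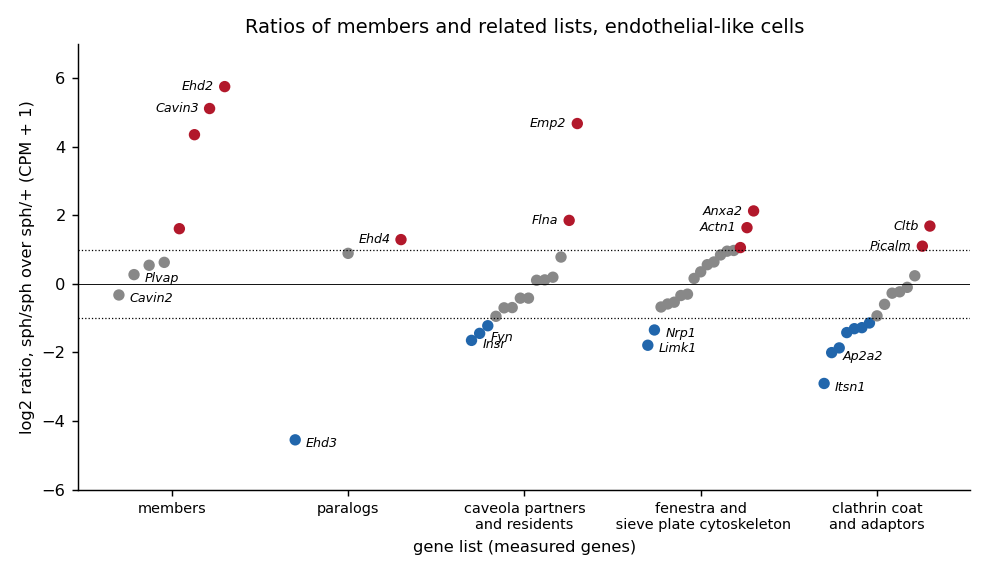
Log2 ratio of sph/sph over sph/+ (1 CPM added) over endothelial-like cells for each measured gene of the 8 members, the paralogs, the caveola partners, the fenestra and sieve-plate genes and the clathrin genes, with dotted lines at 2-fold, red points past it upward and blue points past it downward. The members reach from -0.32 (Cavin2) to 5.76 (Ehd2), while 7 of 15 clathrin genes lie past the lower line, against 10.6% of all measured genes.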

How the data were processed

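Sorted liver endothelial cells of 1 sph/sph and 1 sph/+ mouse were measured. Per the submitters' processing notes the authors used Cell Ranger 3.0 and mm10, and per the file headers the matrices were written by software version 3.1.0. Which gene annotation was used is not given in the sources used here. Per the file headers each matrix holds genes by barcodes, and its deposited values are raw UMI counts with no normalization.

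Barcodes with at least 500 genes, 1000 UMIs and at most 15% mitochondrial UMIs were kept (13094 sph/sph, 12304 sph/+). Scrublet's automatic threshold marked 0% of barcodes in both, so the highest scores at the expected rate of 0.8% per 1000 barcodes were removed (13.6% in sph/sph, 10.7% in sph/+). Both libraries were clustered together without integration (scanpy 1.11.5, leidenalg 0.10.2, 2000 variable genes, 30 components, 15 neighbours, resolution 1), with the members and listed pathway genes held out. Names needed at least 9 of 12 LSEC, 5 of 15 continuous or 4 of 7 lymphatic markers detected in at least 25% of cells. These numbers were set after the data were opened. Between the LSEC and continuous names, the list with the larger detected share had to be the named one. Its markers also had to be no fewer than those of the other list among the 10 leading genes. The lymphatic name also needed a lymphatic marker among these. At least 3 cycling markers among them gave the cycling name first. Counts were summed per library and class and scaled to CPM of all UMIs. Intervals are 95% exact Poisson for levels, exact binomial of the pooled count for ratios and Clopper-Pearson for shares. CPM from 3' counts were not compared between genes.

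The members and lists were chosen with earlier results of these data known. Named genes were all members and paralogs, up to 4 measured genes with the largest absolute log2 ratio per list, and the 3 genes most like Cav1 or Plvap, of which 1 is not reported here. Nos3, Rdx, Cltc, Clta, Src, Trpv4, Prkcd, Prkca and Trpc1 were named after their values were seen. Positions are from GENCODE on GRCm38.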

Additional observations from a re-analysis of the deposited data

Results flagged for a closer look

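Some members had opposite ratios in different cell classes, and the difference between the classes was not tested. Cav2 had a log2 ratio of sph/sph over sph/+ of -0.64 in LSEC-like cells and 1.28 in cycling endothelial-like cells. Plvap had -0.63 in LSEC-like cells, -0.54 in cycling endothelial-like cells and 0.52 in cluster 17. In all unnamed endothelial cells, which include cluster 17, Plvap had -1.17, with 359 CPM in sph/sph and 808 CPM in sph/+, and there cluster 12 made up nearly all the rest in sph/sph and cluster 13 in sph/+. The LSEC-like value rests on sph/sph cluster 9. The Plvap level of LSEC-like sph/sph cells moved with the clustering resolution to both sides of the sph/+ level, so the sign of its LSEC-like ratio was not fixed. The cycling cells carried continuous markers in sph/sph and LSEC markers in sph/+.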

How the results depend on the processing

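Over the 19 alternatives, 4 members were higher in sph/sph and 0 lower by 2-fold or more in every case. Of all measured genes, 5.96% to 13.2% were higher and 3.81% to 12.8% lower by that much. The log2 ratio ran from 4.17 to 4.54 for Cav1, 4.64 to 5.25 for Cavin3 and 5.12 to 6.18 for Ehd2. Plvap had a negative log2 ratio in 4 of the 19: -0.73 without lymphatic-like cells, -0.69 without lymphatic-like and cycling cells, -0.44 with cells weighted equally and -0.33 after thinning to 2000 UMIs. Plvap in LSEC-like sph/sph cells was at 292.6 CPM at resolution 0.5 (1028 cells) and 43.5 CPM at resolution 2.0 (699 cells), against 116 CPM; the cause was not tested. The share of cells with a UMI follows the depth by construction. For Cav1 it was 52.6% in sph/sph and 4.05% in sph/+ at 1000 UMIs, and 83.8% in sph/sph and 15.7% in sph/+ unthinned. For Plvap it was 9.16% in sph/sph and 17.9% in sph/+ at 1000 UMIs, and 17.9% in sph/sph and 48.4% in sph/+ unthinned. The caveola partners higher by 2-fold or more numbered 5 with a floor of 5 CPM, which admits Src, Trpv4 and Prkcd. With that floor 13.2% of all measured genes were higher by 2-fold or more. The fenestra and sieve-plate genes numbered 1 lower without lymphatic-like cells and 5 higher when ratios were centred on the median. No paired analysis was possible because each genotype has 1 mouse. For the same reason depth sets only counting error: at 0 UMIs over a class, levels below the limit set by 3 counts cannot be seen.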
